A study of Saccharomyces cerevisiae with 24 samples.

Results

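Choline-treated Δopi3 budding yeast expressing ire1ΔLD were compared with untreated OPI3 cells expressing the same Ire1 form, to see which genes choline left away from their untreated level. The comparison uses 6 of the 24 one-colour Agilent arrays of the series, 3 in each group. All cells were of strain W303 and mating type a, lacked their own IRE1 gene and were grown at 30 °C in selective synthetic complete medium. Choline-treated Δopi3 ΔLD cells also lacked OPI3 by their label, expressed ire1ΔLD, named for the loss of the lumenal domain of Ire1, and had grown overnight with 1 mM choline. Δopi3 ΔLD cells without choline (3 arrays) give the altered state beside each value. Untreated ΔLD cells (3 arrays) carried OPI3 and received neither choline nor DTT. The matching groups with full Ire1, called IRE1 cells here, were choline-treated Δopi3 IRE1 cells, Δopi3 IRE1 cells and untreated IRE1 cells, with 3 arrays each. The promoter behind the 2 Ire1 forms and the number of clones are not given in the sources used here, and the labels do not say that the arrays of a group came from separate cultures, so the p-values measure the spread between these samples, which may be technical. Choline-treated cells with OPI3 were not among the groups, so the loss of OPI3 and the added choline cannot be told apart in what remained.

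Opi3 is a methyltransferase of the endoplasmic reticulum (ER) that makes the last methylation steps from phosphatidylethanolamine to phosphatidylcholine, the main phospholipid of ER membranes. Cells without it can still make phosphatidylcholine from choline, which is taken up, phosphorylated, activated with CTP and joined to diacylglycerol in the Kennedy pathway. In yeast, many genes of phospholipid synthesis share a promoter element bound by the activator pair Ino2 and Ino4, and the repressor Opi1 acts on this pair when phosphatidic acid in the ER membrane is low, as when inositol is supplied, and more so with choline as well. Ire1 is an ER membrane protein whose lumenal domain senses unfolded protein and whose cytosolic nuclease splices the HAC1 messenger RNA, which then encodes the activator of the unfolded protein response.

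Levels are given as log2 of the background-subtracted signal minus the 75th percentile of the array, so they compare one gene between arrays and not one gene with another. The 75th percentile lay between 8616 and 15890 on the 6 arrays, 90.6% to 93.3% of the spots were well above background, and no gene was saturated. Calls are at adjusted p-values under 0.05 from limma with 8 group means fitted to all 24 arrays and Benjamini-Hochberg adjustment over 6209 genes. The genes that mark mating type a were above background on every array in both groups (6 of 6), and their summed log2 level was 3.25 to 3.53 with choline against 3.21 to 3.37 in untreated cells. Of the 4 alpha-specific genes, 2 were above background on all 3 choline-treated arrays and 3 on all 3 untreated arrays. The 3 slides of the series each held 1 array of every group.

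OPI3 (YJR073C) was checked first. Its level was −9.72, −9.73 and −9.12 on the 3 choline-treated arrays, all within background, against 3.94, 3.83 and 3.85 on the untreated arrays. The signal was at least 2483-fold lower with choline (adjusted p 0.0239), and at most 0.0373%, 0.037% and 0.0472% of the untreated level on the 3 arrays. The Δopi3 ΔLD arrays without choline were mixed: OPI3 was within background in replicate 1 but above it in replicates 2 and 3, at 1.54% and 23.5% of the untreated level. In IRE1 cells OPI3 was likewise above background in replicates 2 and 3 of the Δopi3 group (0.745% and 30.7%) and in replicate 3 of the choline-treated group (11.2%). These 5 arrays enter the shared estimate of the spread. Without them only replicate 1 is left of the Δopi3 ΔLD group and of the Δopi3 IRE1 group. The OPI3 call was kept in 1 of 9 leave-outs of a replicate number or an array (adjusted p 0.046 without replicate 3, and up to 0.769, without replicate 2), while its adjusted p was 2.77e-18 with the 5 arrays left out. What these levels reflect was not tested, and the Δopi3 groups are called by their labels.

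With choline, few genes differed from untreated cells. Of 6209 genes, 32 (0.515%) were called against untreated ΔLD cells, 2 higher (0.0322%) and 30 lower (0.483%), where 3507 (56.5%) were called in Δopi3 ΔLD cells without choline against the same untreated arrays. With the 5 arrays that held an OPI3 signal left out, the count with choline was 41 (3 higher and 38 lower, 29 of the 32 among them). Only replicate 1 of the Δopi3 ΔLD cells is then left, so no count without choline is given for that setting. At least 2-fold changes among called genes numbered 0 higher and 5 lower (0.0805%) with choline, against 443 higher (7.13%) and 55 lower (0.886%) without it. Of the 5, OPI3 is the gene that the choline-treated cells lack by label. Another 2 (YAR066W and its near-identical copy YHR214W) were above background on none of the 6 arrays, so their fitted size is no measured fold. The median size of the difference from untreated cells was 0.065 on the log2 scale with choline and 0.27 without. The comparison was precise enough to bound most genes: its 95% interval lay within 2-fold in either direction for 6098 genes (98.2%), with a median standard error of 0.098. For the other genes, among them the called genes OPI3, YHL048C-A, AMF1 and YEL073C, the interval reached past 2-fold, so a change of that size could not be bounded. At an unadjusted p under 0.05 there were 389 genes (6.27%), and the levels of both groups did not overlap for 941 genes (15.2%).

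**Figure D1:**
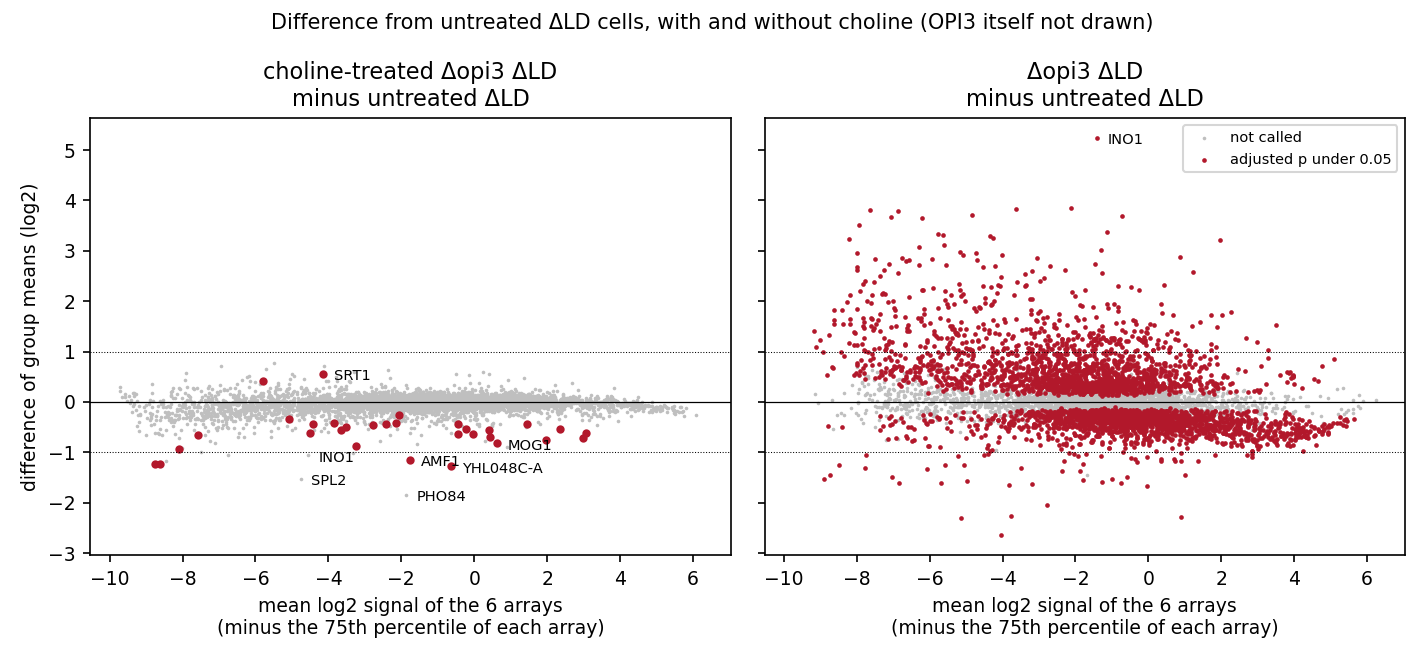
Difference from untreated ΔLD cells (log2, vertical axis) against mean level of the 6 arrays (log2 signal minus the 75th percentile of each array, horizontal axis) for choline-treated Δopi3 ΔLD cells on the left and Δopi3 ΔLD cells on the right. Each point is a gene, red where the adjusted p is under 0.05, and dotted lines mark 2-fold. With choline 32 genes are called and nearly all points lie within 2-fold, against 3507 called genes without choline.

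The 32 genes were separated between the 2 groups, which also fixes the same sign on all 3 slides. Their direction was the same under every alternative in which they were tested. A filter asking for signal above background on all compared arrays tested 27 of the 32. The genes were picked by p-value from these same arrays, so separation and kept direction add no support to the calls. The number called depended on single arrays, on the slide and on which groups entered the fit. With the slide as a block it was 73, all 32 among them, and with the compared groups alone it was 12, with 10 of the 32 among them. Within a slide, 1 array of each group is left and no test can be made. The number was 20 without replicate 1, 1 without replicate 2 and 7 without replicate 3 (that number left out of all 8 groups). Leaving out 1 choline-treated array gave 30, 14 and 19 genes for replicates 1, 2 and 3, and leaving out 1 untreated array gave 13, 37 and 14. MOG1 was called in all 9 of these leave-outs, and CHO1, ITR1 and YHL048C-A in 8. SPS1, ECM19 and YDR124W were called in none of the 9. Scaling to the E1A control probes, which put the median of all genes at 0.14 in place of −0.01, left 3 genes called.

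Whether an altered gene came back was read from arrays that the comparison did not use. In Δopi3 IRE1 cells 592 genes had risen at least 2-fold over untreated IRE1 cells (9.53%) and 125 had fallen at least 2-fold (2.01%). Of the 592, 2 were higher and 0 lower in choline-treated Δopi3 ΔLD cells than in untreated ΔLD cells (7 and 3 with the slide as a block). Their median difference was 0.0078 with choline, against 1.22 in Δopi3 ΔLD cells without it, beside a median of −0.01 over all genes with choline. Of the 125, 0 were higher and 5 lower, with a median of −0.081 with choline and −0.85 without. The 5 were AMF1, MET6, OPI3 itself, which these cells lack by label, and YAR066W and YHR214W. The last named pair was within background on all compared arrays. Intervals were within 2-fold for 93.4% of the 592 genes and 86.4% of the 125. The remaining 25 called genes were among the 5492 that had changed less than 2-fold or were not called in Δopi3 IRE1 cells. With the 5 arrays that held an OPI3 signal left out, the Δopi3 IRE1 group keeps only replicate 1. No counts of raised and lowered genes are given for that setting.

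The called genes fell into 3 kinds by their effect in Δopi3 ΔLD cells, which share the untreated arrays with the comparison and where 1811 genes were higher (29.2%) and 1696 lower (27.3%) in all. There were 13 that stayed altered, OPI3 itself among them, with the Δopi3 effect called in the same direction. Of these, MET6, SRT1 and SPS1 were nearer to untreated with choline than without it (0.47, −0.52 and −0.85, each called). MOG1, YLR157W-E and the dim YML012C-A were further from untreated with choline than without it (−0.41, −0.23 and −0.39, each called). Another 8 passed the untreated level in the opposite direction, and 11 were lower with choline while their Δopi3 effect was not called. Read from the Δopi3 effect in IRE1 cells, where 4177 genes (67.3%) were called, the numbers were 16, 8 and 8, and 23 genes had the same kind by both. With the 5 arrays that held an OPI3 signal left out, only replicate 1 gives the Δopi3 effect in either form, so no numbers are given. Above background on all 6 arrays were 27 of the 32 genes, 25 of them lower, by 0.26 to 1.28 on the log2 scale.

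**Figure D2:**
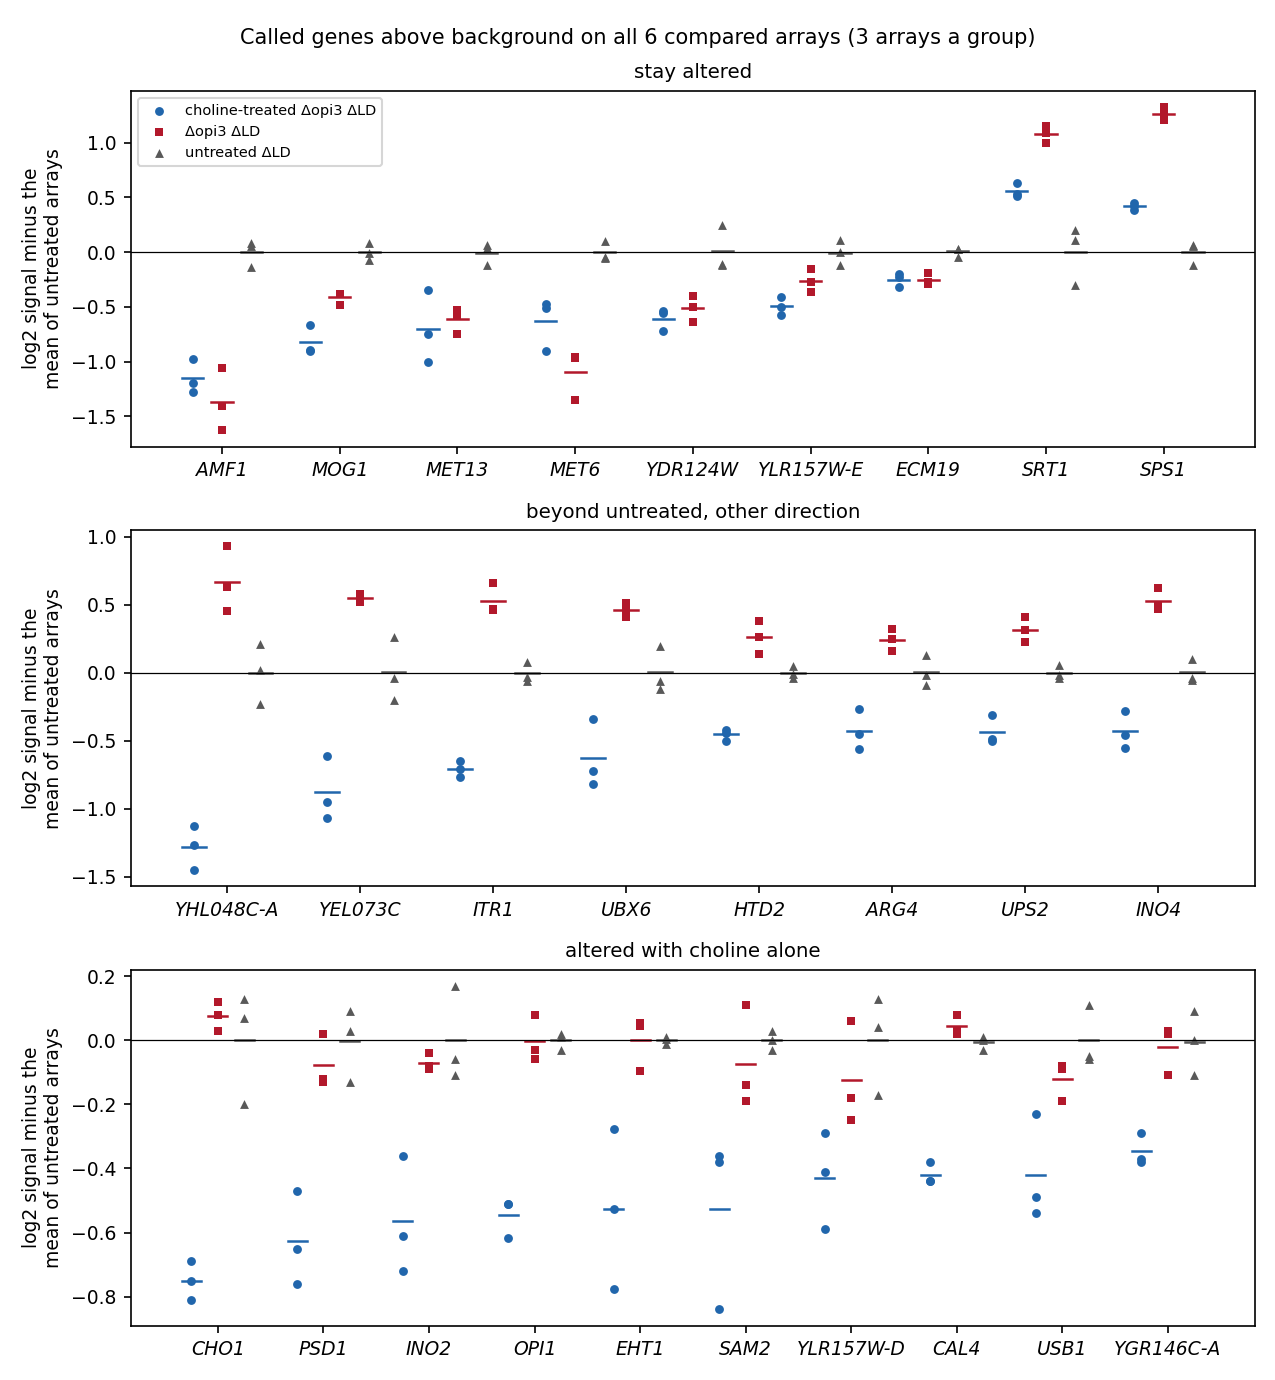
Log2 level minus the mean of the untreated arrays (vertical axis) of the 27 called genes above background on all 6 arrays, with a panel for each kind. Blue circles are choline-treated Δopi3 ΔLD arrays, red squares Δopi3 ΔLD arrays and grey triangles untreated ΔLD arrays, 3 each, and bars are group means. In all 27 genes the blue circles lie wholly on one side of the grey triangles, and SRT1 and SPS1 are the 2 genes where they lie above.

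Genes of inositol and phospholipid synthesis were below the untreated level with choline. Of the 14 genes on this list, 6 were lower and 0 higher, 12 lay below 0, and the median was −0.42 (−1.06 to 0.071), beside 0.483% called lower and a median of −0.01 over all genes. Without choline 5 of the same 14 were higher and 1 lower in Δopi3 ΔLD cells than in untreated cells, with a median of 0.052. The 6 genes were 2 enzymes, a transporter and 3 regulators. All 6 lost their call with scaling to the E1A controls. CHO1, PSD1, INO2 and INO4 also lost theirs with the compared groups alone, while ITR1 and OPI1 kept it.

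CHO1 encodes phosphatidylserine synthase, which makes the precursor of the methylation route. Its level was 1.54, 1.66 and 1.60 with choline, 2.47, 2.43 and 2.38 in Δopi3 cells without it, and 2.48, 2.42 and 2.15 in untreated cells. All 3 choline-treated arrays lay below both other sets, and CHO1 was 1.68-fold lower than in untreated cells (log2 −0.75, SE 0.081, adjusted p 5.51e-05). Without replicate 2 the adjusted p was 0.0743. PSD1 encodes the mitochondrial decarboxylase that turns phosphatidylserine into phosphatidylethanolamine. It stood at −0.37, −0.19 and −0.48 with choline, against 0.31, 0.37 and 0.15 in untreated cells, which is 1.54-fold lower (log2 −0.63, adjusted p 0.000708). The call was lost without replicate 1, 2 or 3 (adjusted p 0.0577, 0.0655 and 0.0862). For both enzymes the Δopi3 arrays without choline lay near the untreated ones (0.078 and −0.073, adjusted p 0.429 and 0.487).

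ITR1 encodes the main inositol transporter of the plasma membrane. Its level was 2.57, 2.63 and 2.69 with choline, 4, 3.80 and 3.81 in Δopi3 ΔLD cells without it, and 3.42, 3.28 and 3.31 in untreated cells. ITR1 was thus high without choline and lower than untreated with it (log2 −0.71, SE 0.091, adjusted p 0.000299, 0.163 without replicate 2), and the 3 groups did not overlap. INO1 encodes inositol-3-phosphate synthase, the first enzyme of inositol synthesis, and had the same order of groups with a wider spread. It stood at −4.53, −5.43 and −5.32 with choline, at 1.19, 1.39 and 1.06 in Δopi3 cells and at −4.28, −4.13 and −3.69 in untreated cells. The difference of −1.06 from untreated cells (SE 0.25, 95% interval −1.59 to −0.53) was not called (adjusted p 0.0737), nor was it with the slide as a block. Of 9 leave-outs 1 gave a call for INO1, and the adjusted p reached 0.962 without replicate 2. It was called without choline-treated replicate 1, the array nearest to the untreated ones (−1.34, adjusted p 0.0138), and with the 5 arrays that held an OPI3 signal left out (adjusted p 0.0329).

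The 3 regulators were all lower with choline. INO2, an activator subunit, stood at −3.74, −4.10 and −3.99, against −3.49, −3.44 and −3.21 in untreated cells (log2 −0.56, adjusted p 0.00692). INO4, its partner, stood at −2.49, −2.76 and −2.67 with choline, at −1.59, −1.74 and −1.72 in Δopi3 cells without it, and at −2.25, −2.26 and −2.11 in untreated cells (choline against untreated: log2 −0.43, adjusted p 0.0127). OPI1, the repressor, stood at 0.072, 0.18 and 0.18 with choline, against 0.70, 0.71 and 0.66 in untreated cells (log2 −0.55, SE 0.069, adjusted p 0.000293). The 3 untreated arrays of OPI1 spanned 0.66 to 0.71, and of the 9 leave-outs its call was lost without replicate 2 (0.134) and without replicate 3 (0.0837). INO2 lost its call without replicate 2 or 3 (0.493 and 0.343), choline-treated replicate 2 (0.0726) or untreated replicate 3 (0.0759). INO4 lost it in 7 of 9 leave-outs, up to 0.4 without replicate 2, and kept it without choline-treated replicate 1 or untreated replicate 2.

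The other 7 members besides INO1 gave no call. CHO2, which makes the first methylation toward phosphatidylcholine, was at 1.58, 1.48 and 1.57 with choline against 2.04, 1.94 and 1.86 in untreated cells, and the groups did not overlap (log2 −0.40, 95% interval −0.60 to −0.20, adjusted p 0.0724, and 0.0416 with the slide as a block). CHO2 was called in 0 of 9 leave-outs (adjusted p 0.12 to 0.787). CDS1, the synthase of CDP-diacylglycerol, differed by −0.21 (95% interval −0.50 to 0.068). The remaining 5 lay between −0.12 and 0.071: the second inositol transporter gene ITR2, the second decarboxylase gene PSD2, the phosphatidylinositol synthase gene PIS1 and the inositol monophosphatase genes INM1 and INM2. PIS1 had been lower in Δopi3 cells without choline (−0.27, adjusted p 0.00428) and stood 0.023 from untreated with it (95% interval −0.13 to 0.18).

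None of the 7 genes of choline uptake and the Kennedy pathway was called, beside 0.515% called over all genes. Still, 6 lay below 0 and the median was −0.29 (−0.52 to 0.04), beside −0.01 over all genes. Without choline the median was already −0.3, with 4 of the 7 lower and 0 higher in Δopi3 ΔLD cells than in untreated cells. Over all genes 27.3% were lower without choline. With the slide as a block, 2 of the 7 were lower, CKI1 (adjusted p 0.023) and HNM1 (adjusted p 0.0447). CKI1, choline kinase, had the lowest value, with −1.72, −2 and −2.23 with choline against −1.50, −1.54 and −1.35 in untreated cells (log2 −0.52, adjusted p 0.0616). Of 9 leave-outs it was called in 1, without choline-treated replicate 1 (adjusted p 0.0121), and the adjusted p reached 0.836 without replicate 2. In the matching comparison of IRE1 cells CKI1 was called (−0.60, adjusted p 0.0104). HNM1, the choline transporter, was at 1.54, 1.58 and 1.64 with choline, about where it was in Δopi3 cells without it (1.54, 1.40 and 1.73), against 2.13, 1.98 and 1.95 in untreated cells. Its difference from untreated cells was −0.43 (95% interval −0.72 to −0.15, adjusted p 0.259), beside −0.46 without choline (adjusted p 0.00739). HNM1 was called in 0 of 9 leave-outs (adjusted p 0.197 to 0.999). CPT1 and EPT1, the transferases that finish the route to phosphatidylcholine and phosphatidylethanolamine, gave −0.36 and −0.29 (adjusted p 0.181 and 0.613). PCT1, whose product activates phosphocholine with CTP, gave −0.22 (adjusted p 0.561), and the ethanolamine-branch genes EKI1 and ECT1 gave −0.087 and 0.04 with adjusted p-values of 1.

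**Figure D3:**
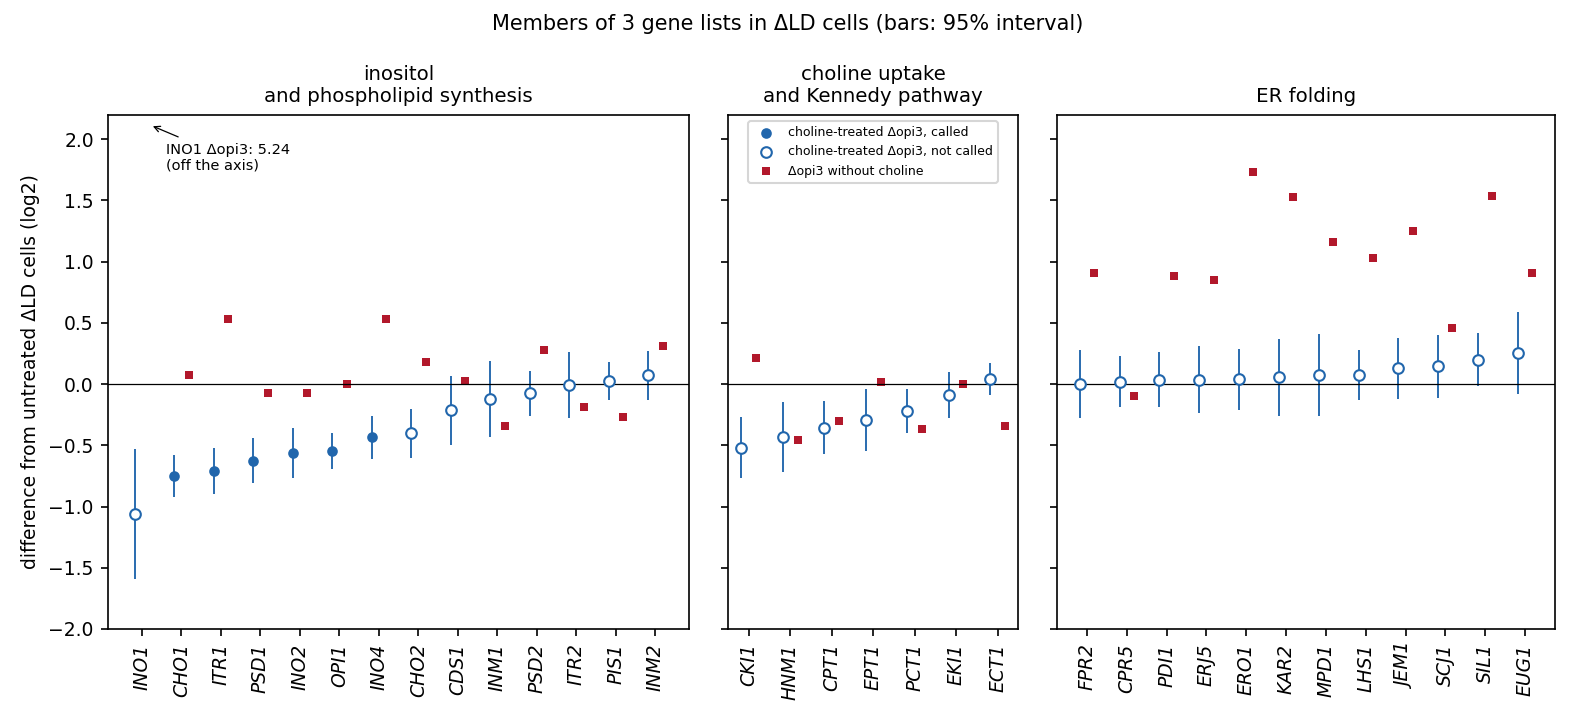
Difference from untreated ΔLD cells (log2, vertical axis) for each gene of 3 lists. Circles are choline-treated Δopi3 ΔLD cells with their 95% interval, filled where called, and red squares are Δopi3 ΔLD cells without choline. In the phospholipid panel the 6 filled circles lie below 0, while in the ER folding panel all 12 open circles lie between 0.003 and 0.25.

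Genes for protein folding in the ER gave no call with choline. Of 12 such genes, 0 were called with choline and 11 were higher without it, with medians of 0.065 and 0.97. Over all genes 0.515% were called with choline and 29.2% were higher without it, so no call in 12 genes is near that share. The 12 values with choline lay between 0.003 (FPR2) and 0.25 (EUG1), and all 12 intervals were within 2-fold. KAR2, the main Hsp70 chaperone of the ER, was at 2.80, 2.81 and 2.77 with choline, 4.31, 4.36 and 4.11 without it, and 2.83, 2.73 and 2.64 in untreated cells. The choline-treated and untreated arrays of KAR2 overlapped (log2 0.059, 95% interval −0.26 to 0.37). SIL1, the nucleotide exchange factor of Kar2, had 3 choline-treated arrays (−0.97, −0.86 and −0.90) just above the untreated ones (−1.04, −1.1 and −1.2), a difference of 0.20 that was not called (adjusted p 0.866). HAC1 was at 1.02, 1.1 and 1.07 with choline and 1.63, 1.39 and 0.95 in untreated cells (log2 −0.26, adjusted p 0.781). This probe reads the amount of HAC1 transcript, and whether it tells the spliced form was not examined. ULI1, named for its induction in the unfolded protein response, had a Δopi3 effect of 2.14. With choline it stood at −5.98, −6.21 and −6.04, against −6.00, −6.42 and −6.02 in untreated cells (log2 0.073, 95% interval −0.19 to 0.34). The 12 genes of ER-associated degradation gave 0 calls and a median of 0.029 with choline, against 7 higher, 2 lower and a median of 0.29 without it.

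The genes that stayed altered came from several functions. AMF1, a low-affinity ammonium transporter, showed the largest remaining change among those above background on all 6 arrays. Its level was −2.46, −2.38 and −2.16 with choline, −2.59, −2.81 and −2.24 in Δopi3 cells without it, and −1.12, −1.32 and −1.1 in untreated cells. The choline-treated arrays overlapped those without choline and lay apart from the untreated ones, 2.22-fold lower (log2 −1.15, SE 0.20, adjusted p 0.00635). The adjusted p was 0.3 without replicate 1 and 0.211 without replicate 2. In IRE1 cells the same comparison gave −0.71 (adjusted p 0.0647).

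MOG1, which encodes a nuclear protein that binds the Ran GTPase Gsp1, had the smallest adjusted p of all genes. Its level was 0.36, 0.14 and 0.13 with choline, 0.65, 0.55 and 0.65 in Δopi3 cells without it, and 1.11, 0.96 and 1.02 in untreated cells. The 3 groups did not overlap, and MOG1 was lowest with choline, 1.76-fold below untreated cells (log2 −0.82, SE 0.076, adjusted p 8.64e-06). It is also the neighbour of OPI3 (YJR074W beside YJR073C, by the gene order of RefSeq's S288C assembly R64). NPA3, the neighbour of OPI3 on the other side, differed by −0.042 (95% interval −0.23 to 0.14), and HOC1, next to MOG1, by 0.12. MOG1 was also low on the Δopi3 arrays whose OPI3 signal was above background: it stood 0.48 and 0.38 below untreated on Δopi3 ΔLD replicates 2 and 3, beside 0.38 on replicate 1.

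The methyl cycle genes MET13, MET6 and SAM2 were lower with choline, and the Δopi3 effect was called for MET13 and MET6. The cycle makes methionine and S-adenosylmethionine, the methyl donor that Opi3 uses. MET13 encodes methylenetetrahydrofolate reductase, and its level was 0.43, 0.035 and −0.22 with choline, against 0.85, 0.66 and 0.82 in untreated cells (log2 −0.69, SE 0.12, adjusted p 0.00672). Its Δopi3 arrays, at 0.036, 0.25 and 0.21, fell within the choline-treated range. MET6, methionine synthase, was at 2.92, 2.88 and 2.49 with choline, 2.04, 2.43 and 2.42 without it, and 3.49, 3.35 and 3.34 in untreated cells (choline against untreated: log2 −0.62, adjusted p 0.0239). The choline-treated MET6 arrays lay above the Δopi3 ones (0.47, adjusted p 0.00367) and below the untreated ones. SAM2, an S-adenosylmethionine synthetase, was at 2.27, 2.25 and 1.79 with choline and 2.66, 2.63 and 2.60 in untreated cells (log2 −0.53, adjusted p 0.0499), with no called effect without choline (−0.072, adjusted p 0.623). In all 3 genes choline-treated replicate 3 was the lowest. Without that array the adjusted p was 0.16 for MET6 and 0.246 for SAM2, while MET13 kept its call. Leaving out replicate 2 ended all 3 calls, each with an adjusted p of 0.4. MET13 was also lost without replicate 3 (0.38), choline-treated replicate 2 (0.0534) or untreated replicates 1 or 3 (0.0554 and 0.0507), MET6 in 7 of 9 leave-outs and SAM2 in 8 of 9.

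MET6 was the only called member of the 14 genes of sulfur assimilation, whose median was −0.041 with choline, against −0.59 and 9 lower genes without it. Over all genes 0.515% were called with choline, and 29.2% were higher and 27.3% lower without it. Of 23 genes of amino acid synthesis under the activator Gcn4, 1 was called with choline, against 14 lower and 4 higher without it. The 1 gene was ARG4, argininosuccinate lyase, at 1.39, 1.1 and 1.21 with choline against 1.64, 1.57 and 1.79 in untreated cells (log2 −0.43, adjusted p 0.0391). ARG4 had been higher in Δopi3 ΔLD cells (0.24, adjusted p 0.036), so by that effect it passed the untreated level. That effect was not called without Δopi3 ΔLD replicate 3, and the Δopi3 effect in IRE1 cells was not called either (0.11, adjusted p 0.296). The call of ARG4 with choline was lost in 7 of 9 leave-outs (adjusted p up to 0.632, without replicate 3). The list median was −0.039 with choline and −0.26 without.

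The 2 genes that stayed higher had risen at least 2-fold without choline. SRT1, a cis-prenyltransferase that makes polyprenols, was at −3.89, −3.91 and −3.79 with choline, −3.27, −3.33 and −3.42 without it, and −4.72, −4.31 and −4.22 in untreated cells. SPS1, a protein kinase of sporulation, was at −5.59, −5.62 and −5.56 with choline, −4.68, −4.80 and −4.75 without it, and −5.95, −6.13 and −5.94 in untreated cells. Both lay between the other 2 groups with no overlap, with remaining differences of 0.55 (SE 0.10, adjusted p 0.0106) for SRT1 and 0.42 (SE 0.082, adjusted p 0.0215) for SPS1. SRT1 was lost in 5 of 9 leave-outs (adjusted p up to 0.4, without replicate 2) and SPS1 in all 9 (0.0507 to 0.511). In IRE1 cells the same comparison gave −0.06 for SRT1 and 0.10 for SPS1 (adjusted p 0.815 and 0.554). The difference between the Ire1 forms was 0.61 for SRT1 and 0.31 for SPS1, and neither passed the test (adjusted p 0.196 and 1).

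The other called genes of this kind, and 2 like them, were smaller or dim. ECM19 (−0.26, adjusted p 0.0261), YDR124W (−0.61, adjusted p 0.0426) and YLR157W-E (−0.49, adjusted p 0.00155) were above background on all 6 arrays. YDR124W lies next to INO2 in the reference order, and it stood at −4.73, −4.91 and −4.75 with choline against −4.31, −4.30 and −3.94 in untreated cells. YLR157W-E and YLR157W-D (−0.43, adjusted p 0.0351) carry neighbouring locus names. Both were also lower in untreated ΔLD cells than in untreated IRE1 cells (−0.69 and −0.6, adjusted p 2.39e-05 and 0.000746). In that comparison 49 genes (0.789%) were called. Both lost their calls with choline without any one replicate number (adjusted p 0.0897 to 0.43). YLR157W-D, whose Δopi3 effect was not called, lost it also without choline-treated replicates 1 or 2 and untreated replicates 1 or 3 (0.131 to 0.225). YAR066W and YHR214W are near-identical copies whose signals the probes may share, and neither was above background on any array of the 2 groups, so no fold is given (fitted log2 −1.23 for both, adjusted p 0.0153 and 0.0239). YML012C-A was within background on all 3 choline-treated arrays and at least 1.12-fold lower (adjusted p 0.0011). YNL179C, whose Δopi3 effect was not called, was above background on 2 untreated arrays and no choline-treated array, and its bound gave no fold (adjusted p 0.0316). Of 9 leave-outs the call was kept in 2 for YAR066W, 3 for YHR214W, 7 for YML012C-A and 1 for YNL179C, with adjusted p up to 0.299, 0.402, 0.195 and 0.343.

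Among the 8 genes that passed the untreated level, YHL048C-A changed most. Its level was −1.12, −1.44 and −1.26 with choline, 0.94, 0.46 and 0.64 in Δopi3 cells without it, and 0.033, −0.22 and 0.22 in untreated cells. It was 2.44-fold lower than untreated (log2 −1.28, SE 0.16, adjusted p 0.000293, 0.0655 without replicate 2), and the 3 groups did not overlap. YEL073C followed the same order, with −3.42, −3.88 and −3.76 with choline, −2.23, −2.26 and −2.29 without it and −3.01, −2.85 and −2.55 in untreated cells (log2 −0.88, adjusted p 0.0011, 0.286 without replicate 2 and 0.111 without replicate 3). Neither has a gene name in the reference table. Neither flanking gene of YHL048C-A (YHL049C and COS8, −0.22 and 0.071) or of YEL073C (YEL075C and RMD6, −0.12 and 0.0015) was called.

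UPS2, which encodes a transfer protein for phosphatidylserine in the mitochondrial intermembrane space, was at −0.53, −0.71 and −0.72 with choline, 0.19, 0.0051 and 0.092 without it, and −0.24, −0.26 and −0.16 in untreated cells (log2 −0.43, adjusted p 0.00125). It supplies the lipid that Psd1 decarboxylates, and both genes were lower with choline. The call was lost without replicate 2 or 3 (adjusted p 0.217 and 0.305). HTD2, a dehydratase of mitochondrial fatty acid synthesis, was at −2.98, −2.96 and −3.04 with choline and −2.49, −2.55 and −2.58 in untreated cells (log2 −0.45, adjusted p 0.00635). UBX6, a UBX-domain partner of the ATPase Cdc48, was at −0.46, −0.94 and −0.84 with choline and −0.18, −0.24 and 0.075 in untreated cells (log2 −0.63, adjusted p 0.0175). HTD2 was lost in 4 of 9 leave-outs and UBX6 in 6, up to 0.4 and 0.578 without replicate 2. The 3 genes, with ITR1, INO4, ARG4, YHL048C-A and YEL073C, had all been higher in Δopi3 ΔLD cells than in untreated ones.

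Of the genes lower with choline alone, EHT1 encodes an acyltransferase that makes ethyl esters of medium-chain fatty acids. It stood at −0.25, −0.50 and −0.75 with choline against 0.037, 0.014 and 0.032 in untreated cells (log2 −0.53, adjusted p 0.0239), and the call was lost in 7 of 9 leave-outs (up to 0.551, without replicate 3). USB1, an exonuclease that trims U6 RNA, was at −3.86, −4.17 and −4.12 with choline and −3.68, −3.69 and −3.52 in untreated cells (log2 −0.42, adjusted p 0.0331), and it lies next to CKI1. Its call was lost in 6 of 9 leave-outs (up to 0.65, without replicate 2). CAL4 (YJR011C) was at −2.37, −2.37 and −2.31 with choline and −1.93, −1.96 and −1.92 in untreated cells (log2 −0.42, adjusted p 0.00635, 0.4 without replicate 2 and 0.28 without replicate 3). YGR146C-A gave −0.34 (adjusted p 0.01), and it was lost in 6 of 9 leave-outs (up to 0.286, without replicate 2). An effect without choline that missed the threshold does not show that these genes were unaffected there.

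Of 55 pairs of a called gene and a measured neighbour, over 29 called genes, 4 had a called neighbour (7.27%), beside 0.515% called over all genes. They are the OPI3 and MOG1 pair and the INO2 and YDR124W pair, each counted from both sides. OPI3 is the gene lacking by label, and YDR124W was called in 0 of 9 leave-outs. With 2 distinct pairs, the share says nothing of neighbours in general. Medians of the 16 chromosomes lay between −0.025 and 0.0017.

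Several gene groups outside the ER that were altered without choline gave no call with it, from ribosomal proteins to hexose transport. The 136 ribosomal protein genes had 0 called with choline (median −0.056), against 134 lower without it (median −0.63), and all 136 intervals with choline were within 2-fold. Of 35 genes for making ribosomes 0 were called with choline (median 0.061), against 21 lower without it (median −0.42). The 16 general stress genes had 0 called with choline (median 0.05), against 12 higher without it (median 1.08). Of the 16 genes of thiamine and vitamin B6 synthesis, 0 were called with choline (median 0.10), against 12 higher without it (median 1.02). The 17 genes of the tricarboxylic and glyoxylate cycles had 0 called with choline (median 0.071), against 12 higher without it (median 0.49). For hexose transport 0 of 13 were called with choline (median −0.062), against 9 higher without it (median 0.76). Intervals with choline were within 2-fold for 11 of the 16 general stress genes and 10 of the 13 hexose transport genes. For the tricarboxylic and glyoxylate cycles they were within 2-fold for 16 of 17. An interval within 2-fold still leaves room for a smaller remaining change.

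The 4 lists of other lipid pathways gave no call either; the called genes HTD2, EHT1 and UPS2 are on none of them. The medians with choline were −0.0086 for 13 genes of fatty acid synthesis and desaturation, −0.0016 for 21 genes of ergosterol synthesis, −0.021 for 15 genes of sphingolipid synthesis and −0.0007 for 14 genes of storage lipid and phosphatidate. All intervals of these 4 lists were within 2-fold. The lowest values were −0.33 for FAA1, an acyl-CoA synthetase (adjusted p 0.536), and −0.27 for SUR1 and PLB1. No gene was called with choline among the lists of cytosolic heat shock, phosphate, iron, zinc, respiration, cell wall, proteasome, nitrogen, auxotrophic marker, mating-type and haploid-specific genes. With the slide as a block the nitrogen gene DAL3 was lower (−0.27, adjusted p 0.0422). IRE1 itself was at 0.24, 0.007 and 0.21 with choline and −0.20, −0.17 and 0.096 in untreated cells (log2 0.24, adjusted p 1), and HIS3, which differed between the strains of the series, gave 0.10 (adjusted p 1). YHR078W, the neighbour of IRE1, differed by −0.06.

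Some uncalled genes had large differences with a wide spread, and they are named after their values were seen. PHO84, the high-affinity phosphate transporter, was at −2.89, −2.68 and −2.80 with choline against −2.05, −0.49 and −0.30 in untreated cells (log2 −1.85, adjusted p 0.577). SPL2, a regulator of phosphate uptake, was at −5.50, −5.62 and −5.46 with choline against −5.05, −3.71 and −3.22 in untreated cells (log2 −1.53, adjusted p 0.548). PHO5, the secreted acid phosphatase, was at −3.87, −3.72 and −3.93 with choline against −3.64, −2.68 and −2.17 in untreated cells (log2 −1.01, adjusted p 0.573). In all 3 the choline-treated arrays agreed closely, and untreated replicate 1 lay nearest to them while the other 2 untreated arrays were higher. The groups did not overlap and the 95% intervals left out 0 (−3.39 to −0.31 for PHO84, −2.77 to −0.29 for SPL2 and −1.84 to −0.18 for PHO5), with unadjusted p-values of 0.0214, 0.018 and 0.0202, but none of the 3 passed after adjustment over all genes. In IRE1 cells the same comparison gave 1.2 for PHO84, 0.75 for SPL2 and 0.031 for PHO5 (adjusted p 0.422, 0.552 and 0.978). Replicate 1 was also the lowest of the untreated IRE1 arrays for each of these genes. The phosphate list as a whole had a median of −0.097 in ΔLD cells. On the high side QDR2, a drug exporter, gave 0.72 (adjusted p 0.139, and 0.0242 with the slide as a block), FRE7, a metalloreductase, 0.66 (0.295), and SIT1, a siderophore transporter, 0.64 (0.325). HSP12, a membrane stress protein, was at 0.40, 0.44 and 0.75 with choline, 2.72, 2.33 and 2.46 without it and −0.45, 0.20 and 0.059 in untreated cells (log2 0.60, 95% interval −0.01 to 1.2, adjusted p 0.818).

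INA1 and YOL014W had been among the strongest falls without choline (−2.29 and −2.65). With choline INA1 was at 2.14, 2.45 and 2.56 against 2.05, 2.05 and 2.05 in untreated cells, a difference of 0.33 whose 95% interval of −0.77 to 1.43 reached past 2-fold. Its Δopi3 ΔLD arrays, at −1.02, −0.66 and 0.95, enter the same estimate of the spread. YOL014W was at −2.77, −3.28 and −2.98 with choline against −2.80, −2.69 and −2.64 in untreated cells (log2 −0.30, 95% interval −1.04 to 0.44). Neither was called.

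The group means of the same comparison in IRE1 cells come from other arrays. Both comparisons use the same estimate of the spread for each gene, so their calls are not independent. There, 138 genes (2.22%) were called between choline-treated Δopi3 IRE1 cells and untreated IRE1 cells, 14 higher (0.225%) and 124 lower (2%). With the slide as a block the count was 448. Genes called in both forms numbered 24, which is 75% of the 32 in ΔLD cells and 17.4% of the 138 in IRE1 cells, and all 24 were lower in both. Of the 32, 31 had the same sign in IRE1 cells, SRT1 being the exception. Across genes, which are not independent replicates, the differences in the 2 forms correlated with r = 0.536 over the 6208 genes other than OPI3. The difference between the forms was tested itself and gave 0 called genes by limma, with 198 at an unadjusted p under 0.05 (3.19%). The median standard error of this test was 0.14, and differences several times larger also missed the threshold. Examples are SRT1 (0.61, SE 0.14, adjusted p 0.196) and YJL218W (0.57, SE 0.11, adjusted p 0.129). The lack of calls thus does not show that the forms were alike. By other settings of the same tool the count was 2 with scaling to the E1A controls, 6 with the slide in the model and 3 without untreated ΔLD replicate 3. With the scaling and model used here, no remaining difference was shown to be particular to ire1ΔLD. With the 5 arrays that held an OPI3 signal left out, 185 genes were called in IRE1 cells and 0 for the difference between the forms. The 2 forms also differed in IRE1 transcript, which was 2.10 higher in untreated ΔLD cells than in untreated IRE1 cells (adjusted p 4.15e-05), and its part in the comparison was not tested.

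**Figure D4:**
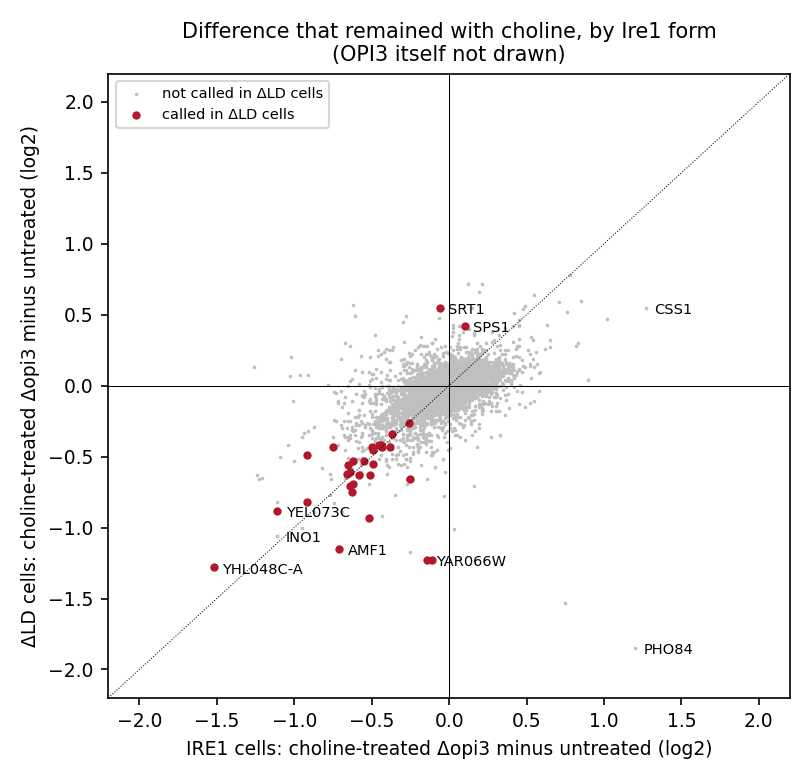
Difference between choline-treated Δopi3 and untreated cells (log2) with ire1ΔLD on the vertical axis and with full Ire1 on the horizontal axis, each point a gene, red where called in ΔLD cells. The dotted line marks equal differences. Of the 32 called genes (OPI3 is not drawn) 31 have the same sign in both forms, and YAR066W and its copy, SRT1 and PHO84 lie far from the line.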

How the data were processed

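Expression in 24 W303 samples was measured on one-colour Agilent arrays (Cy3, 100 ng total RNA per the labels). The deposited files hold spot intensity values from Agilent Feature Extraction 10.7.1.1, background-subtracted and detrended per the file headers and not scaled between arrays. From these, log2 processed signals minus the 75th percentile of each array were averaged by probe (9 or 10 spots each, less the 1.1% to 2.05% marked as outliers) and then by systematic name. The filter asked that over 50% of the spots of a probe be above background throughout at least 1 group. It kept 6209 of 6576 names, and RefSeq's gene list held 5752 of them. limma 3.58.1 (statmod 1.5.0, R 4.3.3, files read with data.table version 1.17.8) fitted 8 group means, with 16 residual degrees of freedom, two-sided p-values and Benjamini-Hochberg adjustment; the script was tested on simulated data. The number of arrays limits the precision. Bounds ("at least") set the dim group at the lowest signal well above background of each array, or its own if higher. With 3 arrays a side the smallest exact permutation p is 0.1, so single values got no such test.

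The genes compared and the lists were chosen with earlier results of these data known. Named were up to 12 rises and 12 falls of largest change among called genes with separated groups, up to 8 per kind, OPI3, IRE1, HIS3, INO1, KAR2, PDI1, ERO1, HAC1, ULI1, INA1, YOL014W, the neighbours of OPI3 and IRE1, and members of the lipid and ER folding lists; the other called and uncalled genes named were chosen after their values were seen. The authors' deposited table of log2 ratios served as an alternative source. Alternatives were other scalings, normexp correction (offset 50, on the median spot signal, since the mean signal was not used here), outlier spots kept, the compared groups alone, the slide as a block, other filters and leave-outs. DTT arrays entered the fit alone.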

Additional observations from a re-analysis of the deposited data

How the results depend on the processing

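The 32 called genes kept their direction under every alternative in which they were tested (27 of them with the stricter filter), 0 kept the call under all of them, and 22 kept it in at least as many as lost it. The alternatives reuse the arrays that gave the calls, so a kept direction adds no support to them. The count of genes called with choline was 3 with scaling to the E1A controls, 12 with the compared groups alone and 73 with the replicate block (the slide), which held all 32, and 1 to 37 over the leave-outs. It was 32 with quantile normalization (4 higher, 28 lower), 39 with median scaling and 22 with normexp. The replicate number is the slide in the file headers, so it marks a batch of arrays. It was not taken to pair cultures, since deviations of same-numbered arrays correlated by −0.07, 0.55 and 0, and 2 of 6 arrays were closest to their own number. The block ended none of the 32 calls and added 41. The difference between the Ire1 forms gave 2 genes with the E1A controls, 6 with the block and 0 to 3 over the leave-outs. Without choline the count was 1008 in ΔLD cells and 1771 in IRE1 cells with the E1A controls (leave-outs 1855 to 3445 and 3011 to 4295), and choline against Δopi3 gave 1336 (2111 to 3655). In IRE1 cells the count with choline was 75 with quantile normalization, 21 with the E1A controls, 81 with the compared groups alone, 448 with the block and 5 to 111 over the leave-outs. Of genes raised at least 2-fold in Δopi3 IRE1 cells, the number higher with choline was 0 with the E1A controls or the compared groups alone, 1 with normexp or outlier spots kept and 7 with the block. The number lower was 1 with quantile normalization, median scaling, the E1A controls or normexp, and 3 with the block. Of the lowered genes, 2 with the E1A controls or with the stricter filter and 3 with normexp or the compared groups alone were lower with choline. Over the leave-outs these 3 numbers were 0 to 2, 0 to 3 and 0 to 6. The mean over both Ire1 forms, added after seeing the data, gave 215 genes. The cause of these shifts was not tested.

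Uncalled values near 0 changed sign. With the E1A controls, which put the median of all genes at 0.14 in place of −0.01, NPA3 was 0.11, YHR078W 0.089, ITR2 0.14, PSD2 0.076, INM1 0.032 and EKI1 0.063. ITR2 was 0.00091 with median scaling and 8.9e-06 with normexp, and ULI1 was −0.011 with normexp. Over the leave-outs PDI1 ranged from −0.048 to 0.13, ERO1 from −0.064 to 0.11, ULI1 from −0.064 to 0.15, NPA3 from −0.079 to 0.0066, ITR2 from −0.099 to 0.061 and PIS1 from −0.014 to 0.072. In the authors' deposited table all 549 genes compared (100%) were within 0.1 log2 of the values here; 17 of the 32 called genes were among them, and the other 15 were not compared.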

Other observations

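Averaging the difference that remained with choline over both Ire1 forms, an estimate chosen after seeing the data, called 215 of 6209 genes (3.46%), 28 higher and 187 lower, with 31 of the 32 genes of ΔLD cells among them. Of the 14 inositol and phospholipid genes 8 were lower, now with INO1 (log2 −1.08, SE 0.18, adjusted p 0.00118) and CHO2 (−0.29, adjusted p 0.0164). In the Kennedy pathway CKI1 (−0.56, adjusted p 0.000464) and PCT1 (−0.23, adjusted p 0.0432) were lower, 2 of 7 genes. Lower were also FAS1, a subunit of fatty acid synthase (−0.27, adjusted p 0.0374), FAA1 (−0.35, adjusted p 0.0303), and of 26 respiration genes QCR6 and COX7 (−0.23 and −0.21, adjusted p 0.00889 and 0.0493).

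Genes that were higher over both forms included HXT2, a glucose transporter (0.53, SE 0.082, adjusted p 0.000633). The surface protein genes CSS1 (0.91, adjusted p 0.00678), HPF1 (0.75, adjusted p 0.0151) and TIP1 (0.51, adjusted p 0.0115) were higher too. HXT2, CSS1, HPF1 and TIP1 were at 0.43, 0.55, 0.47 and 0.54 in ΔLD cells, where none was called. In IRE1 cells they were at 0.63, 1.27, 1.02 and 0.48. SIT1 and FTR1, which take up iron, were at 0.59 and 0.30 (adjusted p 0.0325 and 0.0338), 2 of 15 iron genes. LPP1, a lipid phosphatase that acts on phosphatidic acid, was at 0.37 (adjusted p 0.0374). SIL1 was the 1 called gene of the 12 for ER folding (0.30, adjusted p 0.0241), and the median of that list was 0.20. SIL1 was at 0.2 in ΔLD cells and 0.41 in IRE1 cells.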
